A study of Arabidopsis thaliana with 24 samples.

Results

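Transcript levels were compared between the NBR1-overexpressing Arabidopsis thaliana line OX7.5 and its parent Col-0 (WT) under sulfur deficit (-S), within shoots and within roots. The 12 arrays used, of 24 in the series, were those whose labels name low sulphate, with 3 independent biological replicates in each of 4 groups, and 16554 genes with a probe set of their own were tested of 28583 probe sets on the array. All plants were grown for 4 weeks in sufficient sulfur (nS) and then for 4 days in -S before RNA was taken separately from shoots and roots, and their labels give an age of 33 days. The labels mention pots of soil, whereas the methods describe hydroponic boxes. OX7.5 carries the entire NBR1 open reading frame under the constitutive CaMV35S promoter, fused at its C-terminus to a TAP tag from the vector pC-TAPa, and it is a single transgenic line. WT carries no TAP vector, so the effects of the receptor, of the tag and of the insertion cannot be told apart. NBR1 has no probe set of its own in the annotation, and its level is not analysed here.

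NBR1 is a cargo receptor of selective autophagy, the route by which chosen proteins and aggregates are enclosed in autophagosomes and broken down in the vacuole. It binds ubiquitinated cargo on one side and the ubiquitin-like ATG8 proteins of the forming membrane on the other, and it is degraded together with its cargo. Sulfur is needed for cysteine, methionine, glutathione and glucosinolates, and plants short of it switch on sulfate uptake and recycle sulfur from proteins and from secondary compounds.

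The arrays of each organ shared one scale, with medians of log2 signal of 3.93 to 3.97 for shoots and 2.58 to 2.62 for roots, and pairs of replicates correlated at r = 0.983 to 0.987 in shoots and 0.987 to 0.990 in roots across genes. The organ labels were checked on marker genes. The 7 measured nuclear photosynthesis genes had median percentiles of 98.7 to 99.0 of all genes in shoots and 29.3 to 44.4 in roots, and the 2 measured root hair expansins (EXPA7, EXPA18) had medians of 26.2 or lower in shoots and of 70.1 to 74.3 in roots. The line difference was read in -S shoots and in -S roots, and each was then set against the other organ and against the same organ in nS.

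The line difference was small in both organs. In shoots 98.7% of the genes and in roots 99.3% differed by less than the fold threshold of 1.5 between the group means, and the median standard error of a difference was 0.17 on the log2 scale. With the thresholds of the methods (a change of 1.5-fold or more at an unadjusted p below 0.05, here called DEGs), 197 genes (1.19% of those tested) were DEGs in -S shoots and 102 (0.616%) in -S roots. In shoots 64 DEGs (0.387%) were higher and 133 (0.803%) lower in OX7.5, and in roots 47 (0.284%) were higher and 55 (0.332%) lower. After Benjamini-Hochberg adjustment over all genes, 13 genes (0.0785%) passed an adjusted p under 0.05 in shoots, 4 higher (0.0242%) and 9 lower (0.0544%), and 0 passed in roots, where the smallest adjusted p was 0.091. An unadjusted p under 0.05 was found for 1019 genes (6.16%) in shoots and 633 (3.82%) in roots, against the 5% that this threshold passes where no gene differs. The root DEGs are therefore given as values of the genes with the smallest p, without a claim that they changed.

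The spread behind these calls was pooled over all 24 arrays, so a ± value in one organ also rests on arrays of the other. For BSMT1 the SD in -S was 0.68 in WT and 1.08 in OX7.5 shoots, but 0.18 and 0.04 in roots. For PRXCA it was 0.76 and 0.62 in shoots, and 0.15 and 0.18 in roots. AGL93 went the other way, with 0.12 and 0.07 in shoots and 0.2 and 0.18 in roots. When the 12 -S arrays were fitted alone, the DEG counts were 198 in shoots and 97 in roots. Only 1 of the 13 adjusted shoot genes, AGL93, then kept an adjusted p under 0.05. With shoot arrays alone, either the 6 in -S or the 12 of both supplies, 0 shoot genes passed it. The 3 arrays of OX7.5 lay without overlap on the called side of WT for 44 of the 64 higher and 67 of the 133 lower shoot DEGs. This separation occurred upward in 5.72% and downward in 4.68% of all genes in shoots. In roots it held for 31 of 47 higher and 40 of 55 lower DEGs, beside 6.53% and 5.25% of all genes.

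Of the 9 adjusted genes that were lower in OX7.5 shoots, 4 have a name: PRXCA, OSM34, BSMT1 and BGLU45. PRXCA (AT3G49110, chr3:18200587-18203265 in TAIR10.1), a class III peroxidase of the cell wall also named peroxidase 33, read 4.38, 5.13 and 5.91 log2 units in the WT arrays and 3.49, 3.18 and 2.3 in OX7.5. Every OX7.5 array was thus below every WT array, by 2.15 ± 0.33 (SE) on average, or 4.45-fold (adjusted p = 0.0050). OSM34 (AT4G11650, chr4:7024852-7026224), an osmotin-like protein of the pathogenesis-related thaumatin family, read 7.87, 8.53 and 8.68 in WT against 7.62, 6.13 and 5.32 in OX7.5. The first OX7.5 array stood close to the lowest WT array and the other OX7.5 arrays were well below, and the log2 difference was -2.00 ± 0.38 (4.0-fold, adjusted p = 0.034). BSMT1 (AT3G11480, chr3:3614421-3617342), a methyltransferase that makes methyl salicylate and methyl benzoate, read 4.34, 5.51 and 5.54 in WT against 2.44, 4.42 and 2.69 in OX7.5. Here 1 OX7.5 array lay just above the lowest WT array, so the groups overlapped although the difference of -1.95 ± 0.33 passed (adjusted p = 0.012).

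BGLU45 (AT1G61810, chr1:22829921-22834728) encodes a beta-glucosidase that releases monolignols, the building units of lignin, from their glucosides. Its WT arrays read 2.97, 3.44 and 3.27 and its OX7.5 arrays 2.31, 2.3 and 1.73, all under the shoot median. The groups were separate and differed by -1.11 ± 0.18 (2.16-fold, adjusted p = 0.0050). The remaining 5 lower genes are known in the tables used here only by their locus. AT1G76470 (chr1:28689766-28691659) read 6.22, 7.22 and 7.19 in WT against 5.96, 5.21 and 4.57 in OX7.5, a difference of -1.62 ± 0.27 (adjusted p = 0.0075). AT5G58390 (chr5:23599470-23601404) read 6.76, 7.58 and 7.94 against 6.74, 5.82 and 5.75, a difference of -1.33 ± 0.25 (adjusted p = 0.028). In both genes the first arrays of the lines nearly met, while the other arrays were far apart. AT1G68620 (chr1:25765718-25767240) read 4.8, 5.63 and 5.87 against 4.48, 4.46 and 3.49, a difference of -1.29 ± 0.25 (adjusted p = 0.041). AT1G71520 (chr1:26938369-26939267) read 4.25, 5.05 and 5.00 against 3.47, 3.35 and 3.88, a difference of -1.2 ± 0.19 (adjusted p = 0.0050). AT3G13950 (chr3:4603885-4605513) read 4.83, 5.07 and 4.82 against 4.42, 3.74 and 3.93, a difference of -0.88 ± 0.17 (adjusted p = 0.034). All 3 were separate between lines.

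The 4 adjusted genes that were higher in OX7.5 shoots differed by at most 2.11-fold, and their replicates were close. AGL93 (AT5G26950, chr5:9483251-9484142), a MADS-box factor of the AGAMOUS-like family, read 1.79, 1.84 and 2.02 in WT against 2.89, 3.04 and 2.96 in OX7.5. All its values were dim, but the lines were separated by far more than the arrays within a line (1.08 ± 0.15, 2.11-fold, adjusted p = 0.0028, and 0.022 in the fit of the 12 -S arrays). AGL93 passed in 20 of 22 alternative settings, but in neither fit of shoot arrays alone, and its adjusted p reached 0.24. AT3G16670 (chr3:5681380-5682362) read 7.67, 7.34 and 7.93 in WT against 8.74, 8.59 and 8.76 in OX7.5 (1.05 ± 0.15, 2.07-fold, adjusted p = 0.0028, and 0.051 in the 12-array fit). cwINV6 (AT5G11920, chr5:3839316-3842409) has the symbol of a cell wall invertase but is also named a fructan exohydrolase. It read 3.11, 3.05 and 2.71 in WT against 3.98, 3.56 and 3.84 in OX7.5 (0.84 ± 0.15, adjusted p = 0.015). AT5G07810 (chr5:2491200-2498542) read 2.84, 2.70 and 2.35 in WT against 3.67, 3.31 and 3.36 in OX7.5 (0.81 ± 0.15, adjusted p = 0.025). None of these 4 genes overlapped between the lines.

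**Figure D1:**
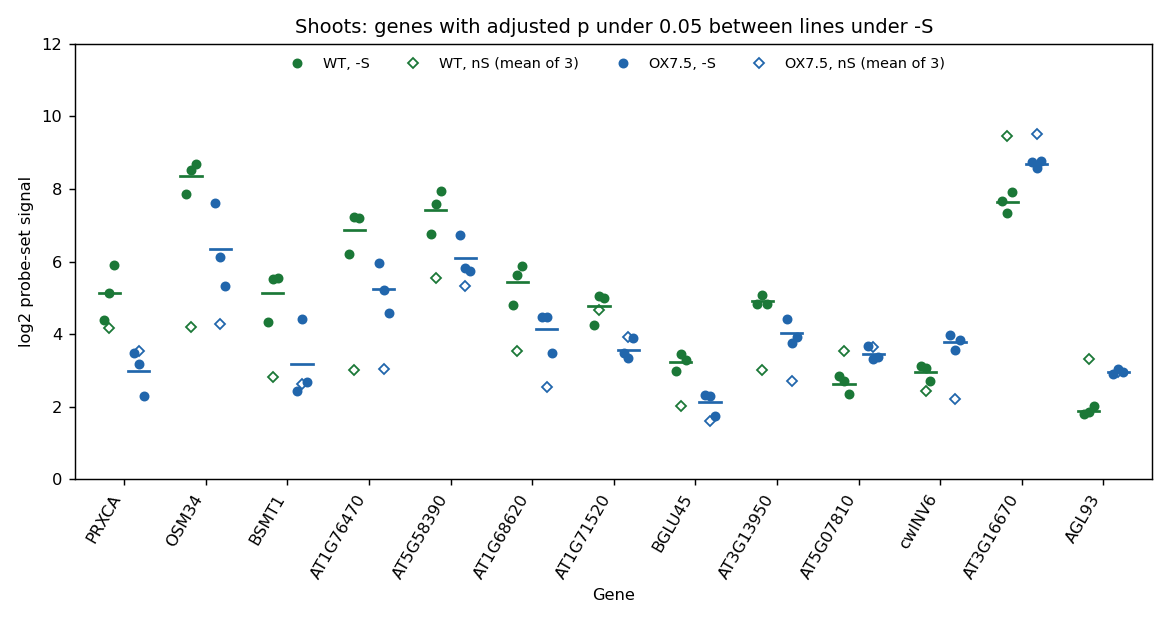
Log2 probe-set signal of the 13 genes with an adjusted p under 0.05 between OX7.5 and WT in -S shoots. Filled circles are single -S arrays of WT (green) and OX7.5 (blue), bars are their means, and open diamonds are the means of the 3 nS arrays of each line. The 9 genes on the left, from PRXCA to AT3G13950, are lower and the 4 on the right higher in OX7.5, and OSM34 and AT1G76470 show nS means of both lines far below the -S arrays.

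In roots the same 13 genes gave differences of at most 0.32 in size, and 1 of them, AGL93, had an unadjusted p under 0.05 there (-0.32 ± 0.15, adjusted p = 1). OSM34 was bright in roots of both lines, with means of 7.59 ± 0.22 (SD, n = 3) in WT and 7.68 ± 0.22 in OX7.5. The difference between organs was tested directly, and it passed an adjusted p under 0.05 for 2 genes of all those tested (0.0121%). These were AGL93 (1.4) and AT3G16670 (1.26). With the replicate block, in the fit of the 12 -S arrays, with dim genes left out, with unmoderated variances, and without replicate 1 of WT roots or of OX7.5 roots, 0 genes passed this test. The gene AT3G16670 was near the floor in roots of both lines, at 0.95 in WT and 0.74 in OX7.5. A difference between organs was not shown for the other 11 genes.

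Levels in nS, from other arrays, stand beside these values. OSM34 had means of 4.2 in WT and 4.28 in OX7.5 in nS shoots, and AT1G76470 of 3.02 and 3.03, so the lines had nearly the same level there. PRXCA read 4.17 and 3.52 on average in nS, a line difference of -0.65 (adjusted p = 0.51). AGL93 stood at 3.32 in WT and 2.96 in OX7.5 in nS shoots, and AT3G16670 at 9.47 and 9.52. The line by sulfur interaction, which asks whether the line difference in -S was another than in nS, was significant after adjustment for 4 of the 13 genes, beside 89 (0.538%) of all genes. These 13 were chosen by the -S difference that also enters the interaction, so nothing is read from this share. The 4 genes were AGL93 (1.44, adjusted p = 0.0013), cwINV6 (1.04, 0.016), AT3G16670 (1.01, 0.024) and AT1G76470 (-1.63, 0.044). Both AT1G71520 and AT1G68620 were lower in OX7.5 in nS shoots as well, by -0.76 (adjusted p = 0.034) and -1.0 (adjusted p = 0.042).

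The shoot DEGs were next read by gene list. The groups are described by their counts beside the shares of all genes. In shoots 0.803% were lower and 0.387% higher, and in roots 0.332% and 0.284%. The lists of class III peroxidases, monolignol synthesis and GH3 enzymes were chosen after the values were seen, so their counts are a description of that choice. Families were read by symbol or synonym, and members known in the tables only by their locus are not counted.

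Of 7 class III peroxidases recognised by name, enzymes that use hydrogen peroxide at the cell wall, 3 were lower DEGs in shoots. Beside PRXCA, Prx37 (AT4G08770) read 5.35, 6.79 and 5.96 in WT against 5.31, 3.83 and 2.50 in OX7.5. The OX7.5 arrays spread over almost 3 log2 units and the mean difference of -2.15 ± 0.43 just missed the adjusted threshold (adjusted p = 0.054). PRX52 (AT5G05340), which has been linked to lignin formation, read 7.22, 8.27 and 7.73 in WT against 7.30, 6.19 and 5.85 in OX7.5. The first OX7.5 array lay within the WT range (-1.3 ± 0.31, adjusted p = 0.14). The neighbour of Prx37 on chromosome 4, AT4G08780, was also a lower DEG (-1.61 ± 0.43, adjusted p = 0.28), and whether the probes of the 2 genes tell them apart was not tested.

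All 5 measured genes of monolignol synthesis and release had a negative difference in shoots, with a median of -0.72 beside 0.02 for all genes, and 3 were DEGs. CCOAMT (AT1G67980), a caffeoyl-CoA methyltransferase, read 3.50, 5.00 and 4.2 in WT against 3.51, 3.22 and 2.45 in OX7.5 (-1.17 ± 0.26, adjusted p = 0.11). BGLU46, which lies next to BGLU45 and has the same kind of substrate, read 3.44, 4.2 and 4.41 in WT against 4.16, 2.98 and 2.75 in OX7.5 (-0.72 ± 0.27, adjusted p = 0.61). In both genes the first OX7.5 array fell inside the WT range. CCR2, a cinnamoyl-CoA reductase, had -0.42 ± 0.19 and HCT, which acts earlier in the pathway, -0.13 ± 0.14. In roots the 5 genes lay between -0.15 and 0.10 and 0 were DEGs.

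In the jasmonate list, which also holds BSMT1, 4 genes were measured, and JMT, the jasmonic acid carboxyl methyltransferase, read 3.62, 4.73 and 4.02 in WT against 3.25, 4.07 and 3.24 in OX7.5. The lines overlapped (-0.60 ± 0.23, adjusted p = 0.62). The defensin PDF1.2 and the thionin THI2.1, common readouts of jasmonate signalling, had -0.53 ± 0.88 and -0.06 ± 0.22 and were not DEGs. Of 6 GH3 enzymes, which join amino acids to auxin or other acidic hormones, 2 were DEGs: WES1 (GH3.5) read 6.2, 7.25 and 6.68 in WT against 5.83, 6.21 and 5.61 in OX7.5. Only the highest OX7.5 array touched the WT range (-0.83 ± 0.25, adjusted p = 0.41). GH3.17 differed by -0.71 ± 0.25 (adjusted p = 0.55).

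Of 51 UDP-glycosyltransferases, which attach sugars to hormones and secondary compounds, 4 were lower DEGs in shoots and 0 were higher, and their median difference was -0.12. UGT76B1, which glucosylates isoleucic and salicylic acid, read 4.15, 5.78 and 6.0 in WT against 4.48, 4.72 and 3.51 in OX7.5. WT replicate 1 lay within the OX7.5 range (-1.07 ± 0.32, adjusted p = 0.40). UGT73C7 had -0.82 ± 0.29, UGT73B4 -0.77 ± 0.29 and UGT71B5 -0.61 ± 0.25. The sugar transporter SWEET2 of the vacuolar membrane was the only DEG of 15 genes in its list, with 6.16, 6.40 and 6.94 in WT against 6.2, 5.51 and 5.39 in OX7.5 (-0.80 ± 0.24, adjusted p = 0.42). AT4G14090 was the only DEG of the 4 measured genes of flavonoid and anthocyanin synthesis (-0.71 ± 0.32). DFR, the dihydroflavonol reductase of that pathway, had a larger but much noisier difference of -0.88 ± 0.73 in shoots, and -0.75 ± 0.73 in roots.

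**Figure D2:**
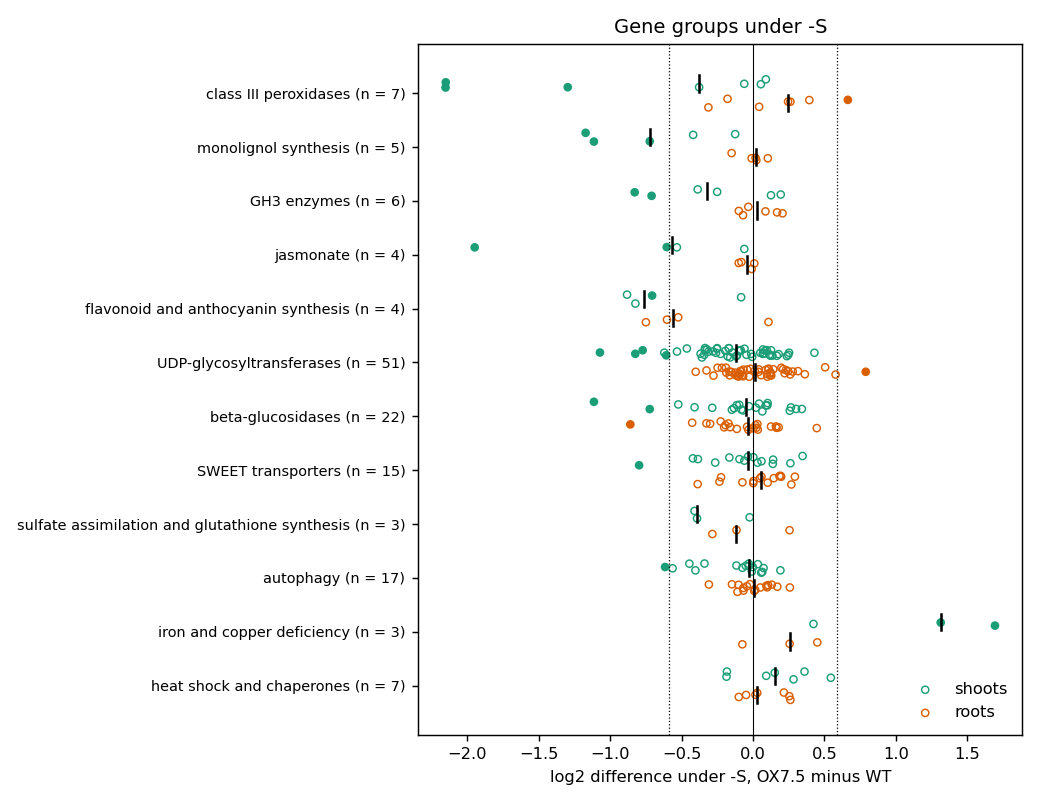
Log2 difference between OX7.5 and WT in -S for the measured members of 12 gene lists, in shoots (green) and roots (orange). Each circle is a gene, filled where it passed the fold threshold of 1.5 (dotted lines) and an unadjusted p under 0.05, and the black bars are list medians. Filled circles lie on the negative side in shoots except for 2 genes of the iron and copper deficiency list, and most root circles lie near 0, where PRX52 and UGT73B3 are filled on the positive side and BGLU44 on the negative side.

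On the other side, 2 of the 3 measured genes of the iron and copper deficiency list were higher DEGs in shoots. AT1G47400 read 4.13, 5.15 and 3.21 in WT against 5.51, 6.38 and 5.68 in OX7.5. Its groups were separate, but the WT arrays spread over almost 2 log2 units (1.69 ± 0.37, 3.23-fold, adjusted p = 0.11). The adjacent AT1G47395 read 4.98, 6.10 and 4.19 against 6.06, 6.88 and 6.27 (1.31 ± 0.51, adjusted p = 0.64). The 2 genes followed each other from array to array, lie next to each other on chromosome 1, and were not shown to be measured independently. BHLH101, a transcription factor of the iron deficiency response, had 0.42 ± 0.18 in shoots and 0.45 ± 0.18 in roots, under the fold threshold in both.

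Some further higher shoot DEGs did not overlap between the lines. SAL2, a relative of the phosphatase SAL1 that removes the sulfation by-product PAP, read 3.68, 4.55 and 3.19 in WT against 4.93, 4.61 and 4.90 in OX7.5. The highest WT array came close to the lowest OX7.5 array (1.0 ± 0.23, adjusted p = 0.12). GLR1.4, a glutamate receptor-like channel, read 5.11, 5.47 and 5.12 in WT against 6.0, 5.78 and 5.80 in OX7.5 (0.63 ± 0.14, adjusted p = 0.12). AT4G28460 (0.93 ± 0.21), AT3G11990 (0.62 ± 0.13) and AT5G20120 (0.62 ± 0.14) had adjusted p between 0.096 and 0.11. The means of AT4G28460 and AT3G11990 were under the shoot median in both lines. So were those of LCR61, a small cysteine-rich peptide. It was the only DEG among 75 measured LCR and SCRL peptides in shoots (0.83 ± 0.24). AGL93 was the only one among 64 AGAMOUS-like factors. Both counts stand beside 0.387% of all genes that were higher.

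Of 43 listed autophagy genes 17 were measured, and 1 was a lower DEG in shoots, beside 0.803% of all genes, and 0 were DEGs in roots. In shoots 12 of the 17 had a negative difference, with a median of -0.03 beside 0.02 for all genes. The DEG was APG8A (ATG8A, AT4G21980), one of the membrane proteins to which NBR1 binds, with 4.39, 4.32 and 4.11 in WT against 3.86, 3.85 and 3.26 in OX7.5. The groups were separate, and the difference of -0.62 ± 0.23 was close to the fold threshold (adjusted p = 0.61). ATG8E had -0.56 ± 0.25 (adjusted p = 0.73), ATG8B -0.45 ± 0.22, ATG8G -0.40 ± 0.20 and ATG8H -0.34 ± 0.25, while ATG8C, ATG8D and ATG8F lay between -0.05 and 0.06. In roots the 17 genes lay between -0.31 and 0.26. ATG3, which loads ATG8 onto lipid, had 0.00 ± 0.12 in shoots and -0.10 ± 0.12 in roots.

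Few genes of sulfur metabolism could be read. Of 20 genes of sulfate assimilation and glutathione synthesis 3 were measured and 0 were DEGs. SIR, the sulfite reductase, had -0.39 ± 0.13 in shoots (adjusted p = 0.53) and -0.12 ± 0.13 in roots. For the ATP sulfurylase APS4 the differences were -0.41 ± 0.17 and -0.28 ± 0.17. BGLU28, a beta-glucosidase induced by sulfur deficit, had 0.02 ± 0.34 in shoots and 0.03 ± 0.34 in roots, intervals too wide to exclude a change near the fold threshold. In the lists of proteasome subunits (7 measured), heat shock proteins and chaperones (7), cold and drought response (5), circadian clock (4), TCP factors (3) and plastid-encoded genes (63), 0 were DEGs in either organ. The plastid-encoded genes had a median of -0.13 in roots, with 58 of 63 negative, and of -0.01 in shoots, beside 0.004 and 0.02 for all genes. Whether these genes vary independently of each other was not tested, so the count of signs is a description.

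In roots the leading genes were different ones. AT1G52130 (chr1:19400510-19402789) read 3.27, 3.63 and 3.92 in WT against 2.50, 2.06 and 2.65 in OX7.5. It had the smallest p of the organ, with groups that did not overlap (-1.2 ± 0.21, adjusted p = 0.091). AT5G07870 read 3.95, 3.56 and 3.28 in WT against 1.95, 1.90 and 2.91 in OX7.5 (-1.34 ± 0.24, adjusted p = 0.098). TUB1 (AT1G75780, chr1:28451138-28453820), a beta-tubulin, read 3.49, 3.60 and 3.06 in WT against 2.31, 2.58 and 2.07 in OX7.5 (-1.06 ± 0.22, adjusted p = 0.22). BGLU44 (chr3:6191461-6194452), a glycosidase of the beta-glucosidase family, read 4.84, 4.47 and 4.73 in WT against 4.1, 3.53 and 3.83 in OX7.5 (-0.86 ± 0.18, adjusted p = 0.22). In these last 3 genes, too, every OX7.5 array was below every WT array. AT1G63230 (-0.99 ± 0.21), AT5G52700 (-1.1 ± 0.28), AT1G67870 (-1.06 ± 0.26), AT1G65560 (-0.66 ± 0.15), AT1G57590 (-0.64 ± 0.15) and AT3G03670 (-0.65 ± 0.16) followed, with adjusted p between 0.22 and 0.65.

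Among the root genes with higher values in OX7.5, AT3G49730 read 2.90, 2.84 and 2.58 in WT against 3.53, 3.97 and 3.69 in OX7.5 (0.95 ± 0.20, adjusted p = 0.22). AT1G50040 read 1.54, 1.41 and 1.82 in WT against 2.54, 2.29 and 2.17 in OX7.5 (0.74 ± 0.15, adjusted p = 0.22). AT3G07380 read 2.07, 1.3 and 1.70 in WT against 3.19, 2.75 and 2.65 in OX7.5 (1.17 ± 0.27, adjusted p = 0.40). The groups were separate in all 3, and WT lay near or under the root median of 2.59. Of 28 expansins and xyloglucan endotransglucosylases, which loosen or rebuild the cell wall, 2 were higher DEGs, beside 0.284% of all genes. These were EXPA23 and EXPA25, which lie 1 gene apart on chromosome 5. EXPA23 read 1.80, 1.42 and 1.48 in WT against 2.64, 2.2 and 2.22 in OX7.5 (0.78 ± 0.22, adjusted p = 0.82). EXPA25 read 3.17, 3.78 and 2.44 against 4.04, 4.13 and 3.71 (0.83 ± 0.26, adjusted p = 1). UGT73B3 (0.79 ± 0.29) was the only DEG of the 51 glycosyltransferases in roots, beside 0.284% of all genes that were higher. GSTU26 (-0.67 ± 0.23) was the only one of 14 glutathione S-transferases, beside 0.332% of all genes that were lower.

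**Figure D3:**
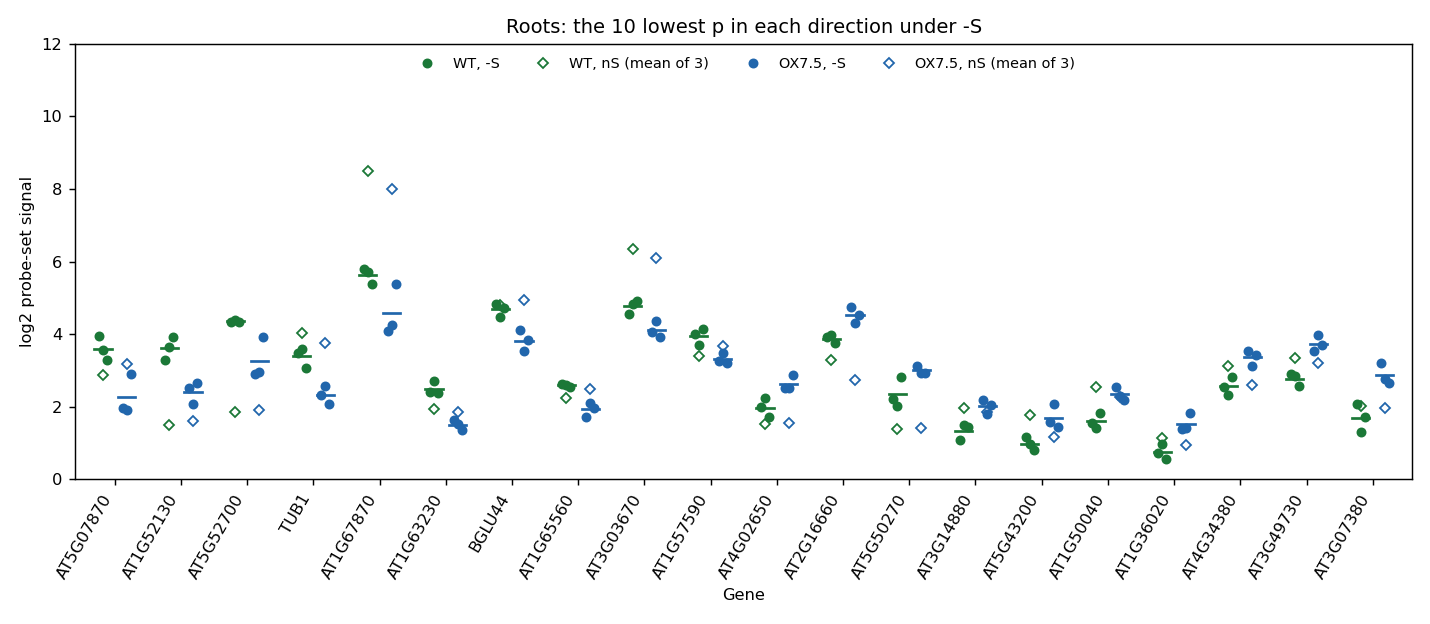
Log2 probe-set signal in roots of the 20 genes with the smallest p among DEGs whose 3 OX7.5 arrays did not overlap the 3 WT arrays in -S, 10 lower (left) and 10 higher (right). Filled circles are single -S arrays of WT (green) and OX7.5 (blue), bars are their means, and open diamonds are the means of the 3 nS arrays of each line. Most genes read between 1 and 5, and for 0 of the 20 did the adjusted p fall under 0.05.

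Few DEGs were shared between the organs. Over 16554 genes the differences in -S shoots and -S roots, which come from separate arrays, correlated at r = 0.017 (Pearson, across genes, which are not independent replicates). Of the DEGs, 2 had the same direction in both organs (1.02% of the 197 shoot DEGs and 1.96% of the 102 root DEGs). Another 3 had opposite directions (1.52% and 2.94%). Of all genes tested, 0.616% were root DEGs and 1.19% shoot DEGs, so these small counts are not read as a lack of sharing. AT2G14247 read 3.63, 5.35 and 3.10 in WT shoots and 4.58, 5.57 and 5.25 in OX7.5 shoots (1.1 ± 0.41), and 0.86 ± 0.41 higher in roots. AT1G12805 had 0.89 ± 0.40 in shoots and 0.83 ± 0.40 in roots. Both overlapped between lines in both organs. The opposite cases were AT2G15780 (-1.07 ± 0.32 in shoots, 1.04 ± 0.32 in roots), PRX52 (-1.3 ± 0.31 and 0.66 ± 0.31) and CML41, a calmodulin-like protein (-0.87 ± 0.22 and 0.59 ± 0.22). AT2G15780 read 2.84, 2.49 and 4.71 in WT shoots and 2.42, 2.21 and 2.18 in OX7.5 shoots, so WT replicate 3 stood far above the rest. PRX52 read 5.84, 5.83 and 6.74 in WT roots and 6.84, 6.63 and 6.93 in OX7.5 roots. For these 5 genes the test of the difference between organs did not pass an adjusted p under 0.05.

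**Figure D4:**
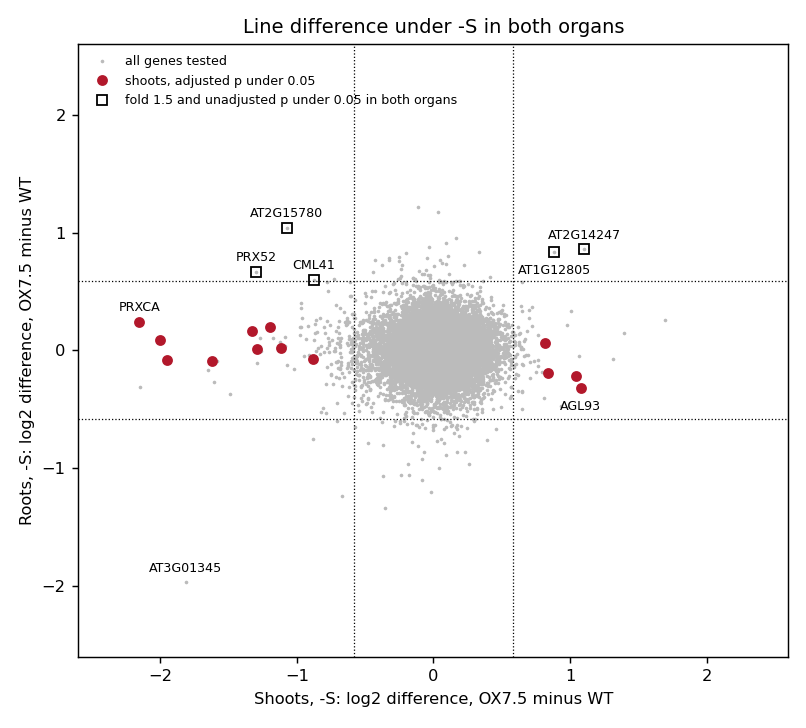
Log2 difference between OX7.5 and WT in -S shoots (horizontal) against -S roots (vertical), each point a gene. Red points are the 13 genes with an adjusted p under 0.05 in shoots, squares are the 5 DEGs of both organs, and dotted lines mark a fold change of 1.5. The red points lie along the horizontal axis, within 0.32 of no difference in roots, where all except OSM34 and cwINV6 were dim. The cloud shows no common direction (r = 0.017).

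More genes separated the lines in nS. There 531 genes in shoots (3.21%) and 537 in roots (3.24%) were DEGs between OX7.5 and WT, and 281 (1.7%) and 141 (0.852%) passed an adjusted p under 0.05. Pairs of nS replicates correlated at r = 0.978 to 0.985 in WT shoots and 0.985 to 0.990 in OX7.5 shoots. In nS roots the values were 0.973 to 0.984 in WT and 0.986 to 0.988 in OX7.5. Single nS arrays were not left out in turn, so how far these counts rest on one array was not tested. When arrays were weighted by their spread within groups, WT root replicate 1 in nS had the lowest weight of all (0.365). The arrays of the nS and -S comparisons are disjoint, and across genes their line differences correlated at r = 0.045 in shoots and -0.012 in roots. The 281 adjusted genes of nS shoots had a median size of difference of 0.90 in nS, by which they were chosen, and of 0.15 in -S, where 135 of them kept their sign. For the 141 of nS roots the median was 0.81 in nS and 0.13 in -S, and 67 kept their sign. The line by sulfur interaction passed an adjusted p under 0.05 for 89 genes in shoots and 10 in roots (0.0604%). Sulfur supply and any batch that ran with it cannot be told apart. Each line difference here is taken within one supply, but the interaction is taken across supplies. A batch difference that was unequal between the lines would enter the interaction, which was not tested.

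Some -S DEGs were also DEGs in nS with the same direction: 26 in shoots (13.2% of the 197 and 4.9% of the 531) and 10 in roots (9.8% of the 102 and 1.86% of the 537), while 9 and 3 were opposite. Of all genes tested, 3.21% were nS DEGs and 1.19% -S DEGs in shoots, and 3.24% and 0.616% in roots. Of the 26 shared shoot genes 21 were lower in OX7.5. NAI2, which is needed for the endoplasmic reticulum bodies of Brassicaceae, had -1.02 ± 0.36 in -S and -1.05 ± 0.36 in nS, the lectin JAL34 -0.67 ± 0.25 and -1.41 ± 0.25, and the GDSL-type lipase gene GLL23 (AT1G54010) -0.97 ± 0.40 and -0.95 ± 0.40. EXO, a cell wall protein linked to growth, had -0.77 ± 0.21 and -0.62 ± 0.21. XTH18, a xyloglucan endotransglucosylase, had -0.71 ± 0.31 and -0.78 ± 0.31. FIO1 was higher in both (0.65 ± 0.20 and 0.67 ± 0.20), as was its neighbour AT2G21080 (0.72 ± 0.27 and 0.69 ± 0.27). In roots 9 of the 10 shared genes were lower, among them GSTU26 (-0.67 ± 0.23 and -0.81 ± 0.23), the ubiquitin-conjugating enzyme gene UBC29 (-0.63 ± 0.26 and -0.82 ± 0.26) and the neighbours AT1G52060 (-0.92 ± 0.36 and -1.51 ± 0.36) and AT1G52070 (-0.87 ± 0.28 and -1.41 ± 0.28). These genes were picked for their values in both supplies, and in -S their adjusted p were between 0.041 and 1 except for AT1G71520 (0.005).

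**Figure D5:**
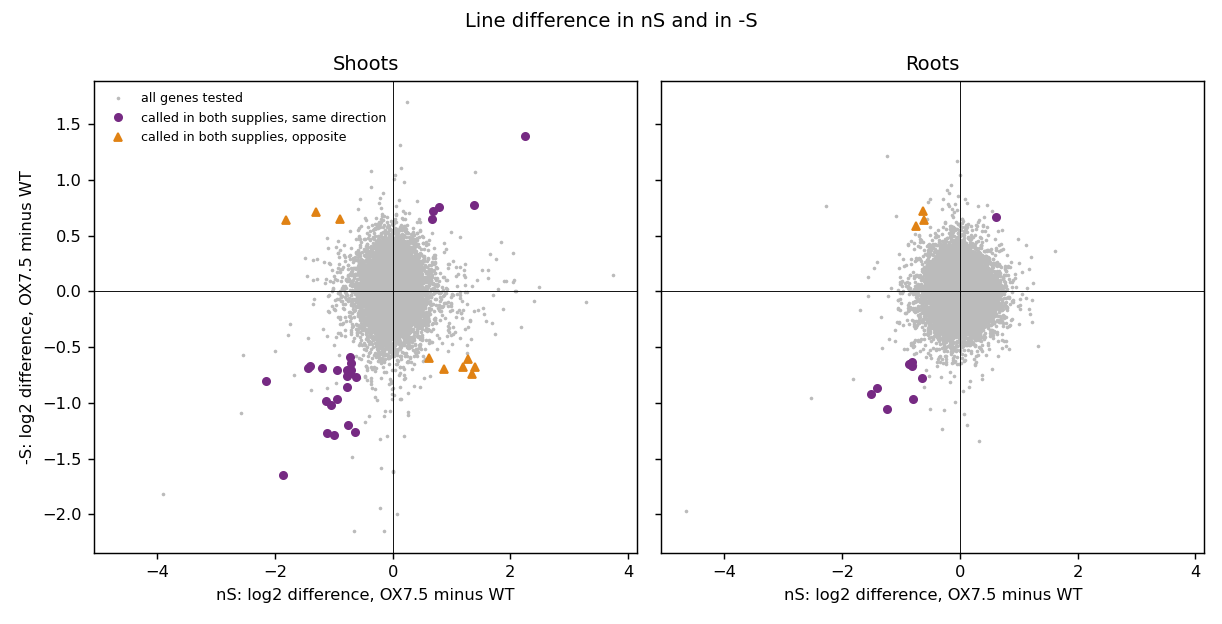
Log2 difference between OX7.5 and WT in nS (horizontal) against -S (vertical) in shoots and roots, each point a gene. Purple circles are DEGs of both supplies with the same direction (26 in shoots, 10 in roots) and orange triangles those with opposite directions (9 and 3). Most genes far out on the horizontal axis lie near 0 on the vertical axis, and most purple circles are in the lower left quadrant.

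The shoot arrays differed in how much they carried of this. Among the 133 lower shoot DEGs, WT replicate 1 was the lowest of the WT arrays for 83 genes and OX7.5 replicate 3 the lowest of the OX7.5 arrays for 71, and of the 9 adjusted lower genes WT replicate 1 was the lowest WT array in 8. Without WT replicate 1 of the shoots the number of shoot DEGs was 395 and of adjusted genes 30. Without OX7.5 shoot replicate 2 they were 406 and 24. The adjusted count fell to 2 without WT shoot replicate 3, where AGL93 and AT3G16670 remained. In roots the DEG count was 185 without WT replicate 3 and 179 without OX7.5 replicate 2.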

How the data were processed

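The deposited log2 probe-set values were made by the authors with RMA in Partek on Affymetrix Arabidopsis Gene ST array strips, and the versions of both are not given in the sources used here. RMA sets arrays on one distribution, so a shift common to most genes would not be seen. Genes were assigned from the platform annotation and RefSeq's gene table for TAIR10.1. There were 28583 probe sets, of which 16746 had exactly 1 gene, 758 had several and 11079 had none. Each gene was read from its brightest probe set, which dropped 192 and left 16554 genes, of which 16418 were matched to the gene table. Labels without low sulphate were read as nS. No detection calls were used. The ribosomal list could not be read from these tables.

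With limma 3.58.1 in R 4.3.3, a mean for each of 8 groups was fitted to all 24 arrays (16 residual degrees of freedom, empirical Bayes moderation), without a replicate block. Contrasts were OX7.5 minus WT in -S shoots and in -S roots, their difference, and each minus the same contrast in nS. DEGs were called as in the methods, at 1.5-fold or more with an unadjusted p below 0.05, and Benjamini-Hochberg adjustment over all genes stood beside it. The code was tested on simulated data. Members and gene lists were chosen with earlier results of these data known.

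Named genes were, by rule, for each organ and direction up to 10 DEGs that also passed the adjusted threshold and did not overlap, filled up with the DEGs of smallest p without overlap. To these came adjusted genes with overlap, DEGs of both organs, up to 4 genes of each sign for the organ difference and the interactions, up to 4 DEGs of each list, and genes the study names. AT4G08780, UGT71B5, genes below the DEG thresholds, genes shared with nS and AT3G01345 were chosen after their values were seen. Alternatives were other array sets, normalization, variance models, a replicate block, dim genes left out, other probe set rules, a fold of 2 and each -S array left out.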

Additional observations from a re-analysis of the deposited data

Results flagged for a closer look

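The line difference in -S differed between shoots and roots for 2 genes by the test of that difference, AT3G16670 (1.26) and AGL93 (1.4). Each was higher in OX7.5 in shoots and had a negative value in roots. In roots both were near the floor, AT3G16670 at 0.95 in WT and 0.74 in OX7.5, and AGL93 at 1.12 and 0.8. With the replicate block, and in the fit of the 12 -S arrays alone, 0 genes passed this test.

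For further genes the line difference in -S differed from that in nS by the test of the interaction. This test is taken across supplies, and sulfur supply cannot be told apart from any batch that ran with it. In shoots it was more positive in -S for AGL93 (1.44), cwINV6 (1.04), AT3G16670 (1.01), AT4G28460 (1.29) and AT3G11990 (0.86). It was also more positive in -S for AT1G19210 (2.45), AT3G44870 (2.01), AT1G20500 (1.79) and AT1G74458 (1.63), whose nS differences were -1.81, -1.3, -1.49 and -1.35 beside 0.64, 0.71, 0.3 and 0.28 in -S. The interaction was negative for AT1G68500 (-3.59), the cold-regulated gene COR27 (-3.38), AT4G25433 (-2.51) and AT1G10585 (-2.49), which were higher in OX7.5 in nS (3.74, 3.28, 2.18 and 2.4) and had small differences in -S (0.14, -0.1, -0.32 and -0.09). For AT1G76470 (-1.63) the difference lay in -S (-1.62, beside 0.01 in nS).

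In roots the interaction was positive for AT3G14340 (1.67), AT2G47150 (1.31), AT3G20850 (1.27), AT5G18850 (1.26) and AT2G16660 (1.2). It was negative for AT2G07708 (-1.49), AT5G66840 (-1.23), AT2G07732 (-1.21) and the plastid-encoded Rubisco large subunit gene rbcL (-1.0). AT2G07732 and rbcL had nS differences of 0.71 and 0.72 in roots, and whether their probes tell them apart was not tested. For AT3G14340, AT2G47150, AT3G20850, AT5G18850, AT2G07708, AT5G66840, AT2G07732 and rbcL the nS difference was the larger in size, with 0.26, 0.42, 0.51, 0.29, -0.27, -0.58, -0.5 and -0.28 in -S. Of these, AT2G16660 was also a DEG in -S roots, with 3.91, 3.96 and 3.76 in WT against 4.75, 4.31 and 4.52 in OX7.5 (0.65 ± 0.16, adjusted p = 0.50).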

How the results depend on the processing

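The 197 DEGs of -S shoots and 102 of -S roots became 86 and 50 with dim genes left out, 31 and 9 at a fold of 2, and 466 and 170 over every probe set. The 13 adjusted shoot genes became 1 in the fit of the 12 -S arrays, 0 with the 6 arrays of one organ, 0 with the 12 arrays of one organ in both supplies, 5 with dim genes left out, 2 with unmoderated variances and 20 over every probe set. The adjusted count of 0 in roots became 2 with trend and robust variances, 6 with array weights and 1 over every probe set. Array weights and the 12 arrays of one organ were added after the data were seen. The 2 genes of the organ difference became 0 in the fit of the 12 -S arrays, with dim genes left out and with unmoderated variances. The 2 DEGs of the same direction in both organs became 1 with either set of 12 arrays and 0 with the 6 arrays of one organ, dim genes left out, quantile normalization, trend and robust variances, unmoderated variances or a fold of 2.

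Leaving out each -S array gave 195 to 406 DEGs in shoots and 100 to 185 in roots, 2 to 30 adjusted genes in shoots and 0 to 3 in roots, 0 to 8 genes for the organ difference and 0 to 3 DEGs shared by the organs. The adjusted shoot count was 30, 6 and 2 without WT shoot replicates 1, 2 and 3 and 23, 24 and 7 without OX7.5 shoot replicates 1, 2 and 3. In roots it was 1 without WT shoot replicate 3 or WT root replicate 3 and 3 without OX7.5 root replicate 3.

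Arrays with the same replicate number did not deviate together (r = -0.24 to 0.09 between lines within an organ and supply, and -0.03 to 0.06 between shoots and roots of a line in -S). They were therefore not treated as pairs, although the high level of AT3G01345 followed the number across organs. With the replicate block the shoots had 199 DEGs and 4 adjusted genes, the roots 99 and 0, the organ difference 0 genes and both organs 3 shared DEGs.

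Of 1725 values for 77 combinations of named gene and organ, 1579 kept direction and side of the threshold, 110 lost the threshold, 30 gained it and 6 changed sign. The sign changed for genes near 0: AT5G45780 in roots (0.01 with array weights, 0.02 and 0.14 without single arrays, range -0.18 to 0.14), TCP15 in shoots (-0.08, range -0.08 to 0.3) and TCP15 in roots (-0.04 and -0.1, range -0.1 to 0.14). The cause of these changes was not tested. The limits are 3 arrays a group, no detection calls, many dim genes (37 higher and 37 lower shoot DEGs, 20 and 16 root DEGs under the organ's median in both lines), and no probe set for many genes.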

Other observations

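A single gene, AT3G01345 (chr3:129138-130749 in TAIR10.1), had the largest negative mean difference in -S roots and still was no DEG. Its WT arrays in -S shoots read 3.01, 3.18 and 8.65, and in -S roots 2.45, 2.38 and 7.70, so WT replicate 3 stood more than 5 log2 units above the other WT arrays in both organs. The OX7.5 arrays read 3.35, 3.21 and 2.85 in -S shoots and 2.04, 2.52 and 2.06 in -S roots, with none at the high level. In nS shoots WT read 3.02, 9.01 and 8.79 and OX7.5 3.28, 3.04 and 2.82, and in nS roots WT read 5.05, 7.64 and 7.77 and OX7.5 1.80, 2.51 and 2.19. The high level was thus seen only in WT, in some replicates and under the same replicate numbers in both organs. An exception to this match was WT replicate 1 in nS, which was low in shoots (3.02) but intermediate in roots (5.05). The line differences in -S were -1.81 ± 1.38 in shoots (adjusted p = 0.94) and -1.97 ± 1.38 in roots (adjusted p = 1). Among all genes tested it was the only one in which 1 array of a -S group lay more than 2 log2 units from both others in the same direction in shoots and roots under 1 number. The gene was picked after its values were seen, and the cause was not tested.

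Several DEGs of one direction lay side by side in the genome. In shoots these were, with 0 annotated genes between them, BGLU45 and BGLU46, Prx37 and AT4G08780, AT1G54010 and AT1G54020, AT5G38900 and AT5G38910, and the alkenal reductase gene AER (-0.69) and AT5G16980 (-0.78), all lower in OX7.5. The higher pairs were AT1G47395 with AT1G47400 and FIO1 with AT2G21080. Whether probes of such neighbours bind both transcripts was not tested.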
